A study of Mus musculus with 2 samples.

Results

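The Kruppel-like factors are a family of transcription factors, and 10 of their genes are described here in a macrophage-like line: Klf2, Klf3, Klf4, Klf6, Klf7, Klf9, Klf10, Klf11, Klf13 and Klf16. They were taken from a deposited table of 54532 genes by their symbol, and each symbol matched a single row. The table's own transcription factor column places all 10 in the C2H2 zinc-finger class. RNA sequencing was run on RAW264.7 cells, a mouse tumour line with macrophage features, after 3 h with lipopolysaccharide (LPS, the bacterial outer-membrane component sensed by the receptor TLR4) at 100 ng/ml. The series has 2 libraries, 1 from cells labelled wild type and 1 from cells labelled as a knockout of RNF138, a ubiquitin ligase, and both received the same dose for the same time. How the knockout was made, and whether it is a clone or a pool, is not stated in the labels. With 1 library per group there is no replicate spread and no test of a difference between the genotypes, and every interval below is a 95% interval of counting error alone. PCR copies of a molecule were counted as separate reads, since no molecular identifiers are described, which can make even these intervals too narrow.

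Every Kruppel-like factor carries C2H2 zinc fingers at its C-terminal end that bind GC-rich DNA and the CACCC sequence, so members can occupy the same sites with opposite effects. What differs is the N-terminal part, which recruits partners. KLF3, KLF8 and KLF12 bind the co-repressor CtBP, KLF1, KLF2, KLF4, KLF5, KLF6 and KLF7 are grouped mainly as activators that engage histone acetyltransferases, and KLF9, KLF10, KLF11, KLF13, KLF14 and KLF16 bind the co-repressor SIN3. In macrophages KLF2 and KLF4 are known as restraints on NF-kappaB-driven inflammatory genes, and KLF6 has been described as favouring them.

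The wild-type-labelled library held 15573989 counts and the knockout-labelled library 19032311. Rnf138, the targeted gene, had 602 counts in the former and 4764 in the latter, a ratio of 6.55 (6.01 to 7.14) against the direction of the label, so the groups are called by their labels throughout. A count of the whole gene does not tell whether an exon is missing. Whether the labels match the libraries was not tested, and every direction given below follows the labels. All 9 macrophage markers examined were measured in both libraries, and 7 of them had a ratio above 1. Adgre1 was 3.58-fold lower and Lyz2 2.55-fold higher in the knockout-labelled library. Of 21 markers of T cells, B cells, endothelium, fibroblasts, epithelium and erythroid cells, 11 had no count in either library and the highest count was 18, that of the endothelial gene Vwf. Their summed level was 2.11 CPM and 1.53 CPM, where CPM is counts per 1000000 of the scaled library total.

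The promoters of the 4 members whose ratios lie furthest from 1 are shown first, because CACCC is the family's own binding sequence. Each is the 300 bases from 250 before to 50 after the RefSeq gene start on GRCm38.p6, read 5′ to 3′ on the gene's strand, with every CACCC or its reverse complement GGGTG in capitals. They are Klf3 (chr5:64803271-64803570, plus strand), Klf7 (chr1:64121340-64121639, minus strand), Klf9 (chr19:23140976-23141275, plus strand) and Klf11 (chr12:24651121-24651420, plus strand).
Klf3: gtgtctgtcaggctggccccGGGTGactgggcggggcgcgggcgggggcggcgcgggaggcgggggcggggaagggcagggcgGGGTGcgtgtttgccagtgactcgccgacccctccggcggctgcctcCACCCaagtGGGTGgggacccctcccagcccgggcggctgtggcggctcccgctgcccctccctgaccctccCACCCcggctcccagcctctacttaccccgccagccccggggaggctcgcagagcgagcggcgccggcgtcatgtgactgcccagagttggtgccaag
Klf7: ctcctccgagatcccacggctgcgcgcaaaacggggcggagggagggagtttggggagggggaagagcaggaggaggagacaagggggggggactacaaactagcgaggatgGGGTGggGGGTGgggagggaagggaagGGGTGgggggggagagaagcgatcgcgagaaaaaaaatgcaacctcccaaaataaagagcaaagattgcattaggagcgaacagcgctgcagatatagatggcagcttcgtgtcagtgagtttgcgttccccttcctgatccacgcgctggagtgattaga
Klf9: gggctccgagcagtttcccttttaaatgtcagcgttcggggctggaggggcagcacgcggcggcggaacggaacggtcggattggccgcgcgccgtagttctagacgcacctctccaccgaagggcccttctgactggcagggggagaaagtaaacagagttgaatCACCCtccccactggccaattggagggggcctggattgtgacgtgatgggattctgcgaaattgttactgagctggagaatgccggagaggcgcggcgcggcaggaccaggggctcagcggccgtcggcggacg
Klf11: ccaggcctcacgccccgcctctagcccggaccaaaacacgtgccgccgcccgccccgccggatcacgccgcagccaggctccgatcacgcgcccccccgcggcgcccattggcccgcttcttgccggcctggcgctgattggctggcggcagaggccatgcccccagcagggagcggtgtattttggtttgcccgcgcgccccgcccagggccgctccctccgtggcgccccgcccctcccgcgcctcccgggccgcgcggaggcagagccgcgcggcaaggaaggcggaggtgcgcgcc
Klf3 held 5 matches, Klf7 held 3, Klf9 held 1 and Klf11 held 0. Over the 32851 promoters of the same length in the RefSeq set, 57.5% held at least 1 match, 9.35% at least 3 and 1.02% at least 5. Of the other members, Klf2 and Klf13 held 1 match each and Klf4 and Klf6 held 0, and Klf10 and Klf16 had no entry.

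The GC box GGGCGG or its reverse complement CCGCCC, a second sequence bound by this family and by the related Sp proteins, occurred 6 times in the Klf3 promoter, 4 times in Klf4 and Klf11, 3 times in Klf13, 2 times in Klf2, 1 time in Klf6 and Klf7 and 0 times in Klf9. Of all the promoters, 35.7% held at least 1, 10.7% at least 3, 5.49% at least 4 and 2.71% at least 5. In Klf3, 1 of the 5 CACCC matches overlapped a GC box. The promoters were GC-rich, from 58.3% in Klf7 to 77.7% in Klf11 against a median of 52.7% over the set, and short GC-rich words are more frequent in such sequence. A match describes letters and not binding. The RefSeq start can differ from the gene start in the deposited table. The Klf7 window lies wholly inside the gene as the table places it, 64029447 to 64122282 on the minus strand. For Klf3 and Klf11 the table's starts, 64803388 and 24651274, lie within the window but before the RefSeq start.

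All 10 genes had counts in both libraries, with levels that ranged over more than 2 orders of magnitude. Levels were compared per length in FPKM, the authors' counts per 1000 bases of gene and per 1000000 of a library size. That size was 96.6% of the total counts in the wild-type-labelled library and 96.2% in the knockout-labelled library. Klf6 stood far above the rest. It had 74.5 FPKM (72.5 to 76.6) in the wild-type-labelled library and 93.3 FPKM (91.2 to 95.4) in the knockout-labelled library, at percentiles 94.4 and 95.3 of the measured genes. Klf6 alone made up 65.3% and 71.5% of the FPKM summed over the 10 members. Klf16 was next at 19.7 FPKM (18.4 to 21.1) and 19.2 FPKM (18.0 to 20.4), and Klf10 followed at 4.98 FPKM (4.44 to 5.56) and 5.12 FPKM (4.63 to 5.66). These genes held the top 3 places in each library, and each was separated from the next gene beyond counting error, except Klf10 from Klf9 in the wild-type-labelled library.

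**Figure D1:**
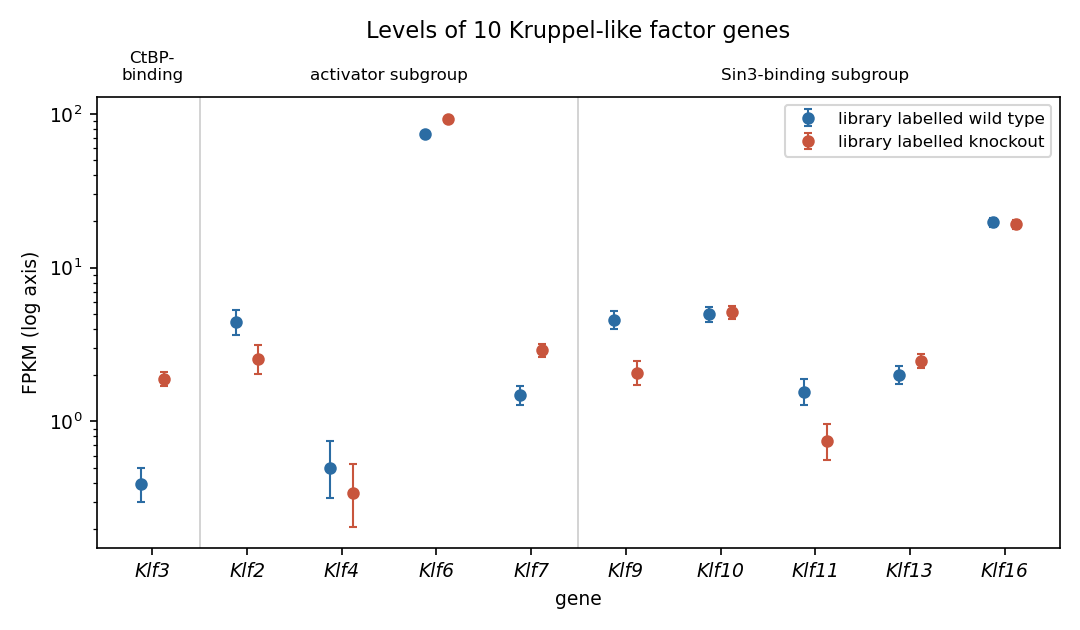
FPKM on a log axis for each of the 10 genes in the wild-type-labelled library (blue) and the knockout-labelled library (red), with exact 95% Poisson intervals of the count. Klf6 is highest in both libraries, at 74.5 and 93.3 FPKM, and Klf3 moves from the lowest place at 0.390 FPKM to 1.89 FPKM.

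Below the top 3 the order differed between the libraries. In the wild-type-labelled library it ran Klf9 (4.56 FPKM), Klf2 (4.43), Klf13 (2.01), Klf11 (1.56), Klf7 (1.48), Klf4 (0.501) and Klf3 (0.390). Counting error did not separate Klf9 from Klf2, Klf11 from Klf7 or Klf4 from Klf3. In the knockout-labelled library it ran Klf7 (2.90 FPKM), Klf2 (2.54), Klf13 (2.48), Klf9 (2.08), Klf3 (1.89), Klf11 (0.743) and Klf4 (0.340). There no genes in adjacent places from Klf7 down to Klf3 were separated, while Klf3 was separated from Klf11 and Klf11 from Klf4. The ends of that run did differ on these lengths, with Klf7 at 1.54 times Klf3 (1.34 to 1.77). The level of Klf9 was 11.7 times that of Klf3 (8.85 to 15.6) in the wild-type-labelled library and 1.10 times (0.892 to 1.35) in the knockout-labelled library. FPKM depends on the length assigned to a gene, and for Klf3 that is 11243 bases, which includes exons of 3 transcripts with retained introns, against 5221 bases for its longest protein-coding transcript in GENCODE M21. In an alternative chosen after the data were seen, the same counts were divided by the length of the longest protein-coding transcript. Klf3 then took place 9 in the wild-type-labelled library and place 4 in the knockout-labelled library. On that length the level of Klf9 was 3.95 times that of Klf3 (2.99 to 5.28) in the wild-type-labelled library. In the knockout-labelled library it was 0.372 times (0.301 to 0.456), and Klf7 stood at 0.759 times Klf3 (0.660 to 0.872). Which gene of each pair stood higher there thus depends on the length used. The counts were still those of the whole gene in the deposited table, 11243 bases for Klf3 and 3263 bases for Klf9. The lengths that divided them were 5221 and 4486 bases, so these values are not levels of the coding transcripts. The Klf9 length in the table, 3263 bases, is shorter than the 4815 exonic bases GENCODE M21 gives it.

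Between the libraries, Klf3 was higher in the knockout-labelled library, Klf9 and Klf11 were lower, and the other 7 did not pass a size rule. The rule required 10 or more counts on average, scaled counts that differed by 2-fold or more, and a ratio whose interval excluded 1. All 10 members had the minimum mean count. Thus 1 of 10 members was past the rule and higher, against 6.54% of the 12668 genes measured in the table, and 2 of 10 were lower, against 3.62%. With 10 members these counts are too small to set the family apart from other genes. On the log2 scale, with ratios of the knockout-labelled over the wild-type-labelled library, the median of the members was 0.01, and that of all measured genes was 0.02. The members lay on both sides, with 5 ratios above 1 and 5 below, and log2 ratios from -1.12 to 2.27.

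**Figure D2:**
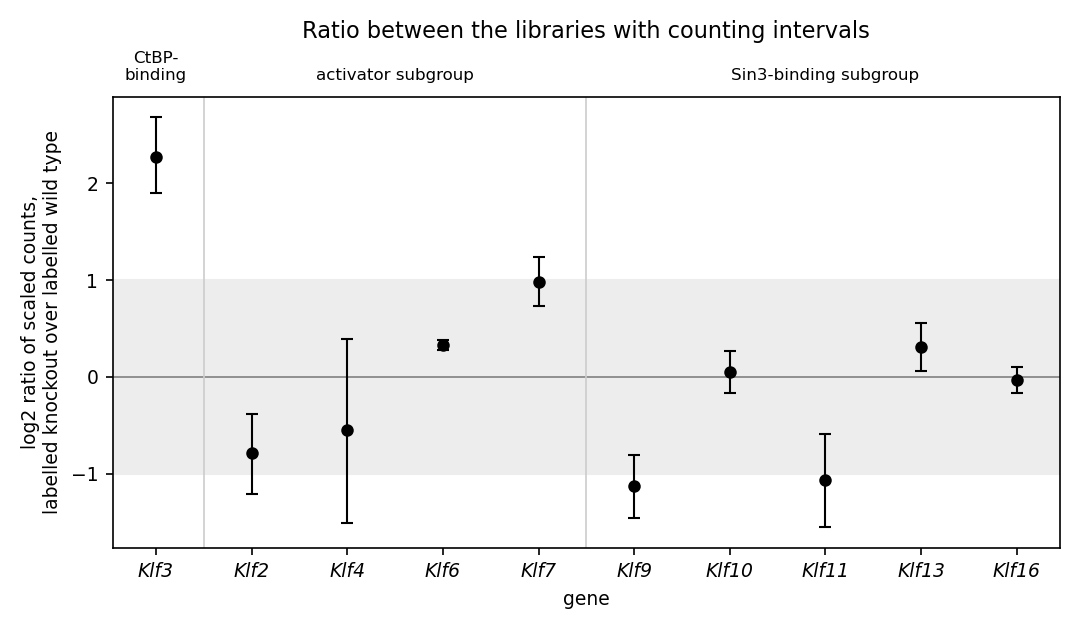
Log2 ratio of scaled counts (knockout-labelled over wild-type-labelled library) for each gene by subgroup, with exact 95% intervals of counting error; the grey band spans differences under 2-fold. Klf3 lies at 2.27, wholly above the band, Klf9 and Klf11 lie just below it at -1.12 and -1.06, and Klf7 lies at its upper edge at 0.98.

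Klf3 (ENSMUSG00000029178, GRCm38 chromosome 5, 64803388 to 64832901, plus strand) encodes a repressor first described as a basic Kruppel-like factor, and in mouse red cell precursors its gene is a target of KLF1. It had 66 counts in the wild-type-labelled library and 388 in the knockout-labelled library, or 4.21 CPM (3.26 to 5.36) and 20.5 CPM (18.5 to 22.6). The level in the knockout-labelled library was 4.86-fold higher (3.74 to 6.41), and the intervals of the levels do not overlap. The count covers all 11243 exonic bases, so it does not separate protein-coding transcripts from the 3 with retained introns. Only 137 of the 12668 measured genes, 1.08%, had a higher ratio. The authors' deposited table gives a log2 fold change of 2.28 for Klf3. Gm20033, a non-coding gene on the opposite strand, covers 3.59% of the Klf3 exons and had 1 and 7 counts, and without a stated counting strand those reads could belong to either gene.

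Klf3 lies beside a pair of receptor genes that were also higher. Within 500 kb of Klf3 there were 7 other measured genes with a median log2 ratio of 0.48, from -0.27 to 2.44. Of them 2 were past the rule and both were higher, where the share over all measured genes was 6.54%: Tlr1 at 5.48-fold (4.04 to 7.59, 48 and 318 counts) and Tlr6 at 2.65-fold (2.02 to 3.51, 70 and 224 counts). They encode the Toll-like receptors that pair with TLR2 to sense bacterial lipoproteins, and they lie 91.8 kb and 119 kb from Klf3. Tlr1 and Tlr6 are similar in sequence, so reads could be split between them. Higher neighbours also lay within 500 kb of members that did not pass the rule. Klf13 had 6 measured neighbours with a median log2 ratio of 0.88 and 1 of them higher, Klf16 had 3 of 47 higher, and Klf2 had 1 of 22 higher. Of the neighbours of the lower genes, 1 of 5 was lower beside Klf11, namely Id2, which encodes an inhibitor of helix-loop-helix factors. Neither of the 2 beside Klf9 passed, and the share lower over all measured genes was 3.62%. A lower neighbour also lay beside Klf10, which did not pass the rule, where 1 of 7 was lower. It was the non-coding gene Gm35019, 32.2-fold lower (13.4 to 101, 133 and 5 counts). The part of the neighbourhood in the Klf3 value was not tested.

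Klf8, the other CtBP-binding gene that was measured, is not among the 10. Its counts were 106 and 162 and its ratio was 1.26 (0.984 to 1.63), an interval that includes 1. Klf12, the remaining gene of that subgroup, had 0 and 2 counts.

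The activator subgroup, Klf2, Klf4, Klf6 and Klf7, had no member past the rule, with log2 ratios from -0.79 to 0.98. Klf6 (chromosome 13, 5861482 to 5870394), an early-response gene, had 4924 and 7497 counts, or 314 CPM (306 to 323) and 396 CPM (387 to 405). Its ratio of 1.26 (1.21 to 1.31) has a narrow interval because of its depth, and the levels do not overlap, but the difference is small, and 26.0% of measured genes had a higher ratio. Klf7 (chromosome 1, 64029447 to 64122282), known for roles in neurons and fat cells, had 181 and 432 counts, or 11.6 CPM (9.94 to 13.4) and 22.8 CPM (20.7 to 25.1). Its ratio was 1.97 (1.66 to 2.36), so it lay just under the 2-fold limit with levels that do not overlap. The non-coding gene Gm26649 covers 39.3% of the Klf7 exons on the opposite strand and had 0 counts in both libraries. Without a stated counting strand, these 0 counts do not show how reads in the overlap were counted.

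Klf2 (chromosome 8, 72319033 to 72321656), which maintains quiescence in endothelium and T cells, was on the other side. It had 123 counts in the wild-type-labelled library and 86 in the knockout-labelled library, or 7.85 CPM (6.53 to 9.37) and 4.54 CPM (3.63 to 5.61). The intervals of the levels do not overlap. The ratio was 0.578 (0.434 to 0.768), and 5.98% of measured genes had a lower one. Klf4 (chromosome 4, 55527143 to 55532466), which drives monocyte differentiation and alternative activation of macrophages, was the scarcest member by count with 23 and 19. Its levels of 0.501 FPKM (0.318 to 0.752) and 0.340 FPKM (0.205 to 0.532) overlap, and a difference was not detectable at this depth (ratio 0.683, interval 0.352 to 1.31). Per length, Klf2 stood at 8.83 times Klf4 (5.62 to 14.4) in the wild-type-labelled library and 7.47 times (4.51 to 13.0) in the knockout-labelled library.

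The SIN3-binding subgroup divided into Klf9 and Klf11, which were lower in the knockout-labelled library, and Klf10, Klf13 and Klf16, which did not pass the rule. Klf9 (ENSMUSG00000033863, chromosome 19, 23141226 to 23166911), a gene induced by glucocorticoid and thyroid hormone, had 224 and 124 counts, or 14.3 CPM (12.5 to 16.3) and 6.55 CPM (5.45 to 7.81). It was 2.18-fold lower in the knockout-labelled library (1.75 to 2.74), and 3.01% of measured genes had a lower ratio. Klf11 (ENSMUSG00000020653, chromosome 12, 24651274 to 24662789), which with Klf10 forms the pair of genes named for early induction by TGF-beta, had 102 and 59 counts, or 6.51 CPM (5.31 to 7.91) and 3.12 CPM (2.37 to 4.02). It was 2.09-fold lower, a ratio of 0.479 (0.341 to 0.666). For both genes the intervals of the levels do not overlap, but the intervals of the ratio reach below 2-fold.

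Klf10 (chromosome 15, 38291463 to 38300706) did not follow Klf11. It had 313 and 392 counts, 20.0 CPM (17.8 to 22.3) and 20.7 CPM (18.7 to 22.9), with a ratio of 1.04 (0.891 to 1.21). Per length, Klf10 stood at 3.19 times Klf11 (2.54 to 4.03) in the wild-type-labelled library and at 6.90 times (5.24 to 9.23) in the knockout-labelled library, intervals that do not overlap. These values depend on the length used. With the longest protein-coding transcript as the length they were 4.12 (3.28 to 5.20) and 8.92 (6.77 to 11.9). Klf16 (chromosome 10, 80567124 to 80577321), first described as a regulator of dopamine receptor genes, had 793 and 938 counts, 50.6 CPM (47.2 to 54.3) and 49.6 CPM (46.4 to 52.8). Its ratio of 0.979 (0.889 to 1.08) limits any difference in scaled level to 1.12-fold lower or 1.08-fold higher by counting error. Klf13 (chromosome 7, 63886351 to 63938915), known in human T cells as an activator of the chemokine gene CCL5, had 228 and 342 counts, 14.6 CPM (12.7 to 16.6) and 18.1 CPM (16.2 to 20.1). Its ratio was 1.24 (1.05 to 1.47), and its levels overlap.

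**Figure D3:**
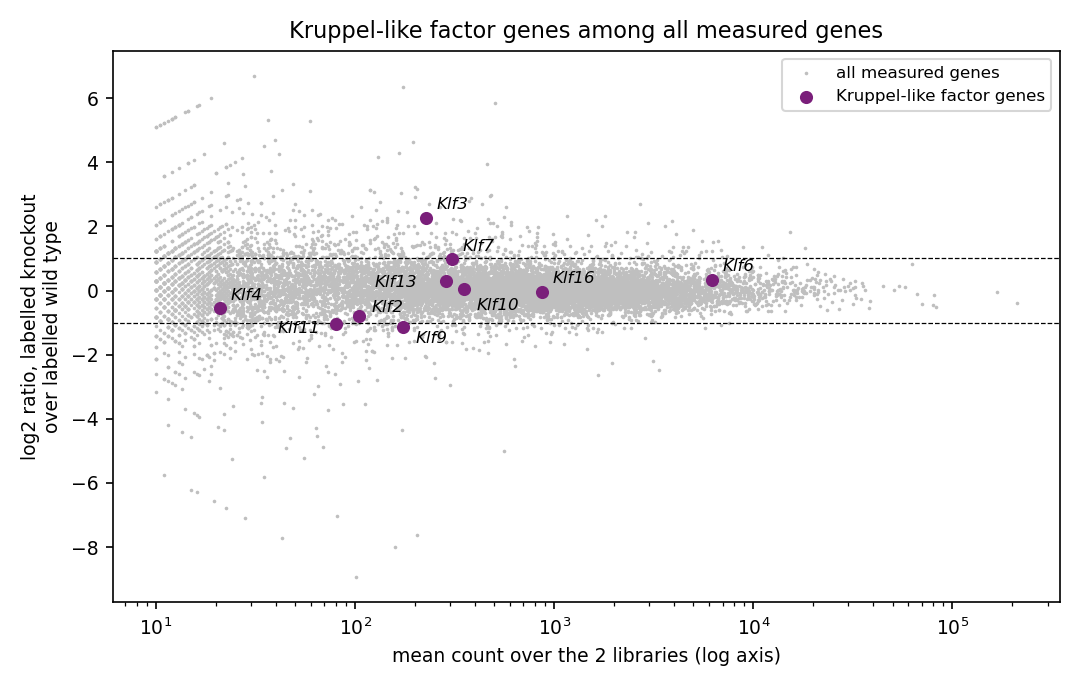
Log2 ratio (knockout-labelled over wild-type-labelled library) against the mean count of the 2 libraries on a log axis for all 12668 measured genes (grey) and the 10 Kruppel-like factor genes (purple); dashed lines mark 2-fold. Klf3 lies above the bulk of genes of like count, and Klf10, Klf13 and Klf16 lie within it.

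The counts of members depended on where the limit was set. At 1.5-fold, 2 members were higher, Klf3 and Klf7, against 12.9% of measured genes, and 3 were lower, Klf2, Klf9 and Klf11, against 8.06%. At 4-fold, Klf3 was higher and none was lower, against 1.72% and 1.01% of measured genes. With both ends of the interval required to exceed 2-fold, Klf3 was again the only member past the limit, against 2.79% of genes higher and 1.46% lower. On log2 of FPKM plus 1, which shrinks differences of weakly expressed genes, Klf3 stood at 1.05 and no member was lower by 2-fold, with -0.85 for Klf9 and -0.56 for Klf11. Summed over the 10 members, the family had 446 CPM in the wild-type-labelled library and 543 CPM in the knockout-labelled library, a ratio of 1.22 (1.18 to 1.26). Without Klf6 the other 9 summed to 131 CPM and 147 CPM, a ratio of 1.12 (1.06 to 1.19). Of the 2053 and 2780 counts in that sum, Klf3 alone supplied 66 and 388. Such sums add counts over genes of unlike length, and they do not show a rise shared by the members.

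Of the 7 Kruppel-like genes outside the list, Klf8 was measured, and the other 6 had at most 3 counts in a library. Klf14 and Klf15 had 0 counts in both libraries, which at a limit of 3 counts per library allows up to 0.192 CPM and 0.158 CPM. Klf1 had 1 and 3 counts. The related Sp genes, whose zinc fingers bind the same GC boxes, had 5 of 9 members measured and none past the rule. All 5 had ratios below 1, with a median log2 ratio of -0.21 against 0.02 for all measured genes. The ratio of Sp1, the ubiquitous activator, was 0.865 (0.824 to 0.909) from 3138 and 3282 counts, and that of Sp3 was 0.665 (0.623 to 0.710) from 2067 and 1661 counts. The intervals of the other measured Sp genes included 1. Of 356 other measured genes that the table classes as C2H2 zinc-finger genes, 28 (7.87%) were higher and 10 (2.81%) lower, with a median log2 ratio of 0.01.

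Genes whose products act with, upstream of or on the Kruppel-like factors mostly did not pass the rule. The same holds for all measured genes, of which 6.54% were higher and 3.62% lower. All 12 co-regulator genes were measured and none passed, with a median log2 ratio of -0.18. Ctbp1, the partner of KLF3, stood at a ratio of 0.858 (0.822 to 0.896) from 4045 and 4197 counts. The co-repressor gene Ncor1 stood at 0.573 (0.544 to 0.603) from 3614 and 2503 counts. The MEK5-ERK5-MEF2 cascade activates Klf2 and Klf4 in endothelium, and FOXO1 activates Klf2 in T cells. Of these 8 genes, 1 was lower and none higher, with a median of -0.30. The lower gene was Foxo1, at 115 and 62 counts, 2.24-fold lower in the knockout-labelled library (1.63 to 3.10). None of 6 genes for ubiquitin ligases reported to act on Kruppel-like proteins passed, with a median of -0.05. Wwp1, whose product acts on KLF2, had a ratio of 0.654 (0.599 to 0.715) and Fbxw7 had a ratio of 0.943 (0.833 to 1.07).

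Of 9 measured genes reported as repressed by KLF2 or KLF4, 6 were higher in the knockout-labelled library, none was lower and 3 did not pass. Their median log2 ratio was 1.60. Over all measured genes 6.54% were higher and 3.62% lower. The list was drawn up with the values of several of its genes known, so its count is no independent evidence of a direction. The largest ratios were those of the cytokine gene Il6 at 6.49, Nos2 (inducible nitric oxide synthase) at 4.05, the cytokine gene Il1b at 3.53 and Ptgs2 (cyclooxygenase-2) at 3.52. The 3 that did not pass were Tnf at 1.18 (1.16 to 1.20), F3 at 1.05 (0.683 to 1.62) and Hif1a at 0.657 (0.630 to 0.684). Of 7 genes reported as raised by KLF2 or KLF4, the cell-cycle inhibitor gene Cdkn1a alone was measured, with a ratio of 1.56 (1.51 to 1.61, 5219 and 9844 counts). Arg1 (arginase), a marker of alternative activation, had 3 and 8 counts. The activity of the factors was not analysed here, and levels of transcripts do not show it.

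**Figure D4:**
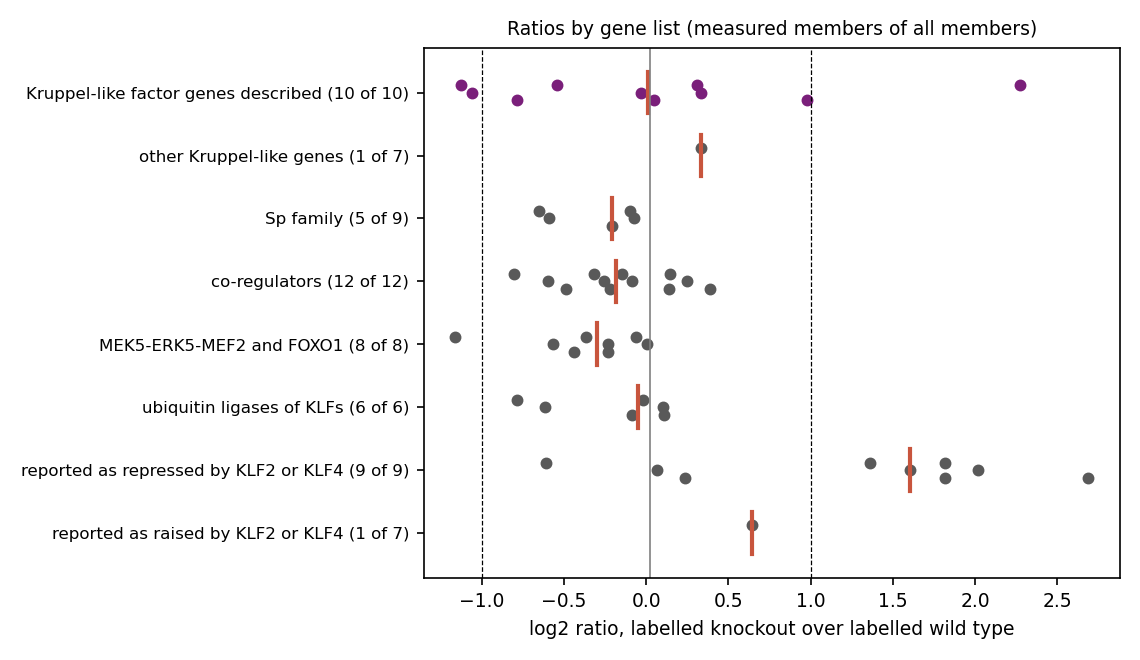
Log2 ratio (knockout-labelled over wild-type-labelled library) of each measured gene by list, with red bars at list medians, a grey line at the median of all measured genes and dashed lines at 2-fold. The 10 Kruppel-like factor genes spread from -1.12 to 2.27 around a median of 0.01, and the genes reported as repressed have a median of 1.60. The list of repressed genes was drawn up with the values of several of its genes known.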

How the data were processed

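Total RNA of each culture was sequenced, and the submitters' processing notes name CASAVA 1.8, HISAT2 2.0.5, featureCounts 1.5.0-p3 and the build GRCm38. They give no annotation release, read length or strand setting. Raw counts per gene were deposited. The FPKM values deposited by the authors are those counts divided by gene length and by 96.6% and 96.2% of the library totals. The authors' deposited signal columns are counts scaled between the libraries, and their log2 fold changes are ratios of these. The deposited p-values of the authors were not used, since 1 library per group gives no spread.

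Counts were scaled with TMM factors (edgeR 4.0.16, R 4.3.3), and no edgeR or DESeq2 test was run. CPM and FPKM have exact Poisson intervals, and ratios have exact Clopper-Pearson intervals conditional on the summed counts. Log2 ratios had 0.5 counts added. A count of 0 was given an upper limit of 3 counts. A gene is called measured from a mean count of 10 upwards. The members and lists were chosen with earlier results of these data known. All 10 members are named. From each other list, up to 4 genes past the size rule with the largest difference are named, or else the 2 most abundant. Klf12, Klf14, Klf15, Tlr1, Tlr6, Id2, Gm35019, Tnf, F3, Hif1a and the genes overlapping a member were named after their values were seen. Pairs of members compared per length were also chosen after their values were seen. The longest exact stretch that a member's transcripts share with those of another Klf or Sp gene in GENCODE M21 was 41 bases, between Klf3 and Klf12. The procedure was tested on simulated counts with Poisson error alone, the error that the intervals assume. That test therefore does not cover variation between cultures or PCR copies. Alternatives included DESeq2 1.42.0 size factors, other count filters and other fold limits.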

Additional observations from a re-analysis of the deposited data

How the results depend on the processing

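Every member kept the sign of its log2 ratio under DESeq2 size factors, total counts, upper-quartile factors, 5 counts added, and log2 of FPKM plus 1. The other scalings moved every log2 ratio by at most 0.02 in size, and changed no member's call. On log2 of FPKM plus 1, which shrinks differences of weakly expressed genes, the values were 1.05 for Klf3, 0.65 for Klf7 and -0.56 for Klf11, and 0 members were lower. Members called lower numbered 1 at a mean count of at least 100, where Klf11 was no longer tested, 0 at a 4-fold limit and 0 with both ends of the interval past 2-fold, and members called higher numbered 2 at a 1.5-fold limit.

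Over all genes, 303 were higher and 138 lower on log2 of FPKM plus 1, 327 and 161 at a mean count of at least 100, 1634 and 1021 at 1.5-fold, 218 and 128 at 4-fold, and 353 and 185 with the interval wholly beyond 2-fold, against 828 and 458 under the size rule. The 100 values recomputed were ratios between libraries, medians of the members and counts of genes. Of these, 82 stayed within their interval or within 1.5 times the count. For the median the interval ran from -1.06 to 0.98, the log2 ratios of Klf11 and Klf7. Each other scaling shifted all log2 ratios by the same small amount, so those values had little room to move, and the 82 is no measure of robustness. With the longest protein-coding transcript as the length, 8 of the places of members in the order of levels changed. Depth limits Klf4 most, at 23 and 19 counts. No paired analysis was possible because each group has 1 library.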
